A study of Mus musculus with 2 samples.

Results

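The renin-angiotensin genes described here are Agt, Ren1, Atp6ap2, Ace, Enpep, Agtr1a, Agtr1b, Agtr2 and Mas1, which are 9 of the 55536 annotated genes measured. They were taken by symbol, and no measured value entered the rule. The members and the gene lists set beside them were, however, chosen with earlier results of these data known. Total RNA was sequenced from the adrenal gland of 2 female B6CASTF1/J mice, F1 hybrids of C57BL/6J and CAST/EiJ parents, at the age of 4 days. Both libraries belong to 1 group. They share their strain, sex, age and tissue, and the labels name no treatment, mutation or control. The study therefore holds no comparison between conditions, and the only error to be had is the spread between the 2 replicates. The labels disagree about the animal behind replicate 2, since its library text repeats the animal number of replicate 1 while its tissue text has a different one, and the donor record is common to both. The replicates are called animals here because their tissue records differ. If both came from 1 animal, the spread would be technical.

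Renin cleaves angiotensinogen to angiotensin I, and angiotensin-converting enzyme trims that peptide to angiotensin II, the main effector of the system. Angiotensin II acts on the zona glomerulosa, the outer layer of the adrenal cortex, where the type 1 receptor signals through Gq and calcium and raises aldosterone output. The circulating enzyme and substrate come mostly from kidney and liver, and the adrenal gland is known both as a target organ and as a tissue that makes some of the components itself.

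Levels are given in deposited TPM, a count divided by the effective length of the transcripts and scaled to a fixed total, so that genes can be set side by side. The gene tables held 31838341 expected counts in replicate 1 and 32931868 in replicate 2, of which 0.900% and 0.923% were spike-in counts. Where a gene had 0 counts, its share could still reach 9.42e-06% of the library in replicate 1 and 9.11e-06% in replicate 2, the worth of 3 counts. Markers of the labelled tissue were detected. All 8 zona glomerulosa genes, all 9 zona fasciculata genes and all 7 chromaffin genes stood at 1 TPM or more in both animals. So did all 8 liver genes and 59.3% of nuclear protein-coding genes, so this level alone does not identify a tissue. The glomerulosa, fasciculata and chromaffin sums were 622 and 580 TPM, 4226 and 4471 TPM, and 1851 and 2164 TPM in replicates 1 and 2. Markers of neighbouring tissues were present too. The 6 brown and white fat genes had a sum of 655 and 738 TPM in replicates 1 and 2, similar in both animals. Kidney, liver and exocrine pancreas markers differed more between the animals. The 13 kidney genes had a sum of 153 and 15.7 TPM in replicates 1 and 2, the 8 liver genes one of 151 and 640 TPM, and the 5 exocrine pancreas genes one of 3440 and 0.590 TPM.

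The receptor genes Agtr2 and Agtr1a were the highest of the 9, Atp6ap2 followed, and the enzyme and substrate genes lay in a lower band with Agtr1b. Mas1 was at the detection limit. At 1 TPM or more in both animals stood 7 of the 9 genes, against 59.3% of the 22015 nuclear protein-coding genes; Ren1 was above that level in replicate 1 only, and Mas1 was below it in both. The sum of the 9 genes was 156.5 TPM in replicate 1 and 164 TPM in replicate 2. Agtr1a, Agtr1b and Agtr2 made up 108 and 126 TPM of those sums. In the order by mean level, Agtr2 and Agtr1a were not told apart, because their ranges over the 2 animals overlapped and the order held in 1 of 2 animals. Atp6ap2 lay below both of them and above Enpep with no overlap. From Enpep through Ace, Agt and Agtr1b to Ren1, each neighbour overlapped the next, so the order of neighbours inside that band is not resolved. Enpep and Ace, with lowest values of 5.34 and 5.23 TPM, did lie above Agtr1b, with a highest value of 3.66 TPM. Mas1 lay below all others in both animals.

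**Figure D1:**
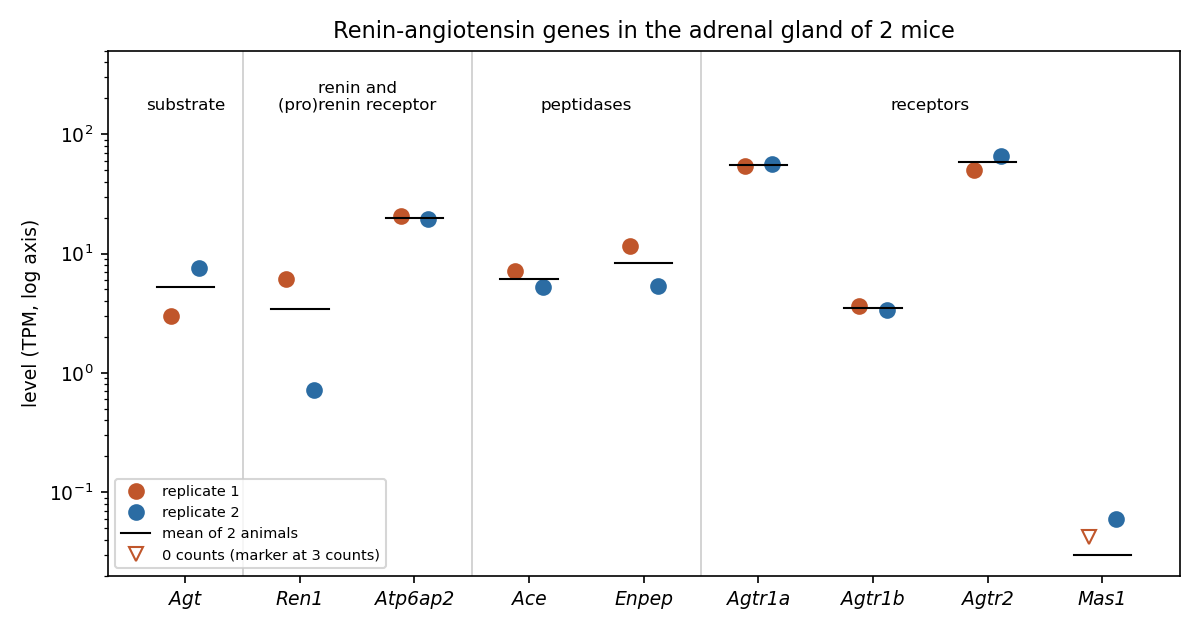
Level of each renin-angiotensin gene in TPM on a log axis, by role, with replicate 1 left of replicate 2 and a bar at the mean of the 2 animals; the open triangle marks the 3-count floor of Mas1, which had 0 counts in replicate 1. Agtr1a, Agtr1b and Atp6ap2 have nearly coinciding points, while Agt, Ren1 and Enpep are spread.

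Agt (ENSMUSG00000031980.9, chr8:124556534-124569706 on the minus strand of mm10) encodes angiotensinogen, the only known precursor of the angiotensins. It measured 2.97 TPM in replicate 1 and 7.57 TPM in replicate 2, from 164 and 432 counts. The higher value was that of replicate 2, and the mean was 5.27 ± 3.25 TPM (SD, n = 2). In the RNA counted here the peptide itself is a short stretch near the start of the coding sequence. It is shown because every product of the system derives from it. The 90 coding bases at chr8:124564420-124564509, read on the minus strand, lie in exon 2 of 5 of the only annotated Agt transcript (GENCODE M21), and the capitals mark the 30 bases at chr8:124564450-124564479 that encode angiotensin I, codons 30 to 39 of 482.
Agt angiotensin region: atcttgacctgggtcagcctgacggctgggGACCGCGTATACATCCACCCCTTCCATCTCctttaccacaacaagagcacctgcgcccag
The letters are those of the reference genome, and the mice also carry a CAST/EiJ allele. None of the 50-base stretches of that transcript occurred in a transcript of another gene.

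Ren1 (ENSMUSG00000070645.5, chr1:133350510-133360325, plus strand) encodes renin, the aspartyl protease that opens the cascade and is made chiefly by juxtaglomerular cells of the kidney. It had 6.16 TPM in replicate 1 and 0.720 TPM in replicate 2, from 283 and 34 counts. The ratio between the replicates was the widest among the members with a mean count of at least 100, and the mean of 3.44 ± 3.85 TPM (SD, n = 2) has an error larger than itself. Atp6ap2 (ENSMUSG00000031007.2, chrX:12587801-12617049, plus strand) encodes the (pro)renin receptor, which is also an accessory subunit of the vacuolar proton pump. It measured 20.57 TPM in replicate 1 and 19.33 TPM in replicate 2, from 1371 and 1360 counts. Its level was thus close in the 2 animals, with a mean of 19.95 ± 0.877 TPM (SD, n = 2). Of the 2275 stretches of 50 bases in its full-length transcript, 65 also occurred in the transcript of the gene Gm36448, so a small part of its reads could have been split between them. The log2 ratio of Atp6ap2 over Ren1 within an animal was 1.74 in replicate 1 and 4.73 in replicate 2, a gap that follows the Ren1 values. Agt stood below Ren1 in replicate 1, with a log2 ratio of -1.05, and above it in replicate 2, with 3.38. The order of substrate and enzyme RNA was therefore opposite in the 2 libraries. The mean log2 ratio of 1.16 ± 3.13 (SD, n = 2) has no sign beyond its spread. Kidney and liver marker sums also differed between these libraries, and their part in this order was not tested.

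Ace (ENSMUSG00000020681.14, chr11:105967945-105989964, plus strand) encodes angiotensin-converting enzyme, a membrane dipeptidase abundant on endothelium and on brush borders. It measured 7.11 TPM in replicate 1 and 5.23 TPM in replicate 2, from 1003 and 732 counts. Replicate 1 was higher, and the mean was 6.17 ± 1.33 TPM (SD, n = 2). The gene is known for a pair of promoters. The upstream one gives the somatic enzyme with its tandem catalytic domains, and one inside the gene gives the shorter testis enzyme. The longest transcript, with 25 exons and 1312 codons, held 864.6 counts in replicate 1 and 570 in replicate 2. The transcript of 732 codons that begins at the internal start held 0 counts in replicate 1 and 16.1 in replicate 2. In the second quantification, a separate deposited count of the same libraries, the internal-start transcript had about 0 and 9.999 counts. The somatic form thus carried most of the signal, and the internal start was at or near 0. Of the 2369 stretches of 50 bases in the internal-start transcript, 196 occurred in no other transcript, so its count rests on few positions. The 250 bases before each of the RefSeq starts are shown because the transcripts counted begin close to them, at 105967945 and 105975208 in GENCODE M21. They come from RefSeq (GRCm38.p6) on the plus strand, chr11:105967698-105967947 for the upstream and chr11:105974939-105975188 for the internal start, and capitals mark matches to the searched motifs on either strand.
Ace upstream start: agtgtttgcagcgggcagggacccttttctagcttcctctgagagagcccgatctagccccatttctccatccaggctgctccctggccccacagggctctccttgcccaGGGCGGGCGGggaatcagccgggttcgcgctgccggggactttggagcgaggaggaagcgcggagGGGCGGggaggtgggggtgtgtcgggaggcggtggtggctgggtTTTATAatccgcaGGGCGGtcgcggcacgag
Ace internal start: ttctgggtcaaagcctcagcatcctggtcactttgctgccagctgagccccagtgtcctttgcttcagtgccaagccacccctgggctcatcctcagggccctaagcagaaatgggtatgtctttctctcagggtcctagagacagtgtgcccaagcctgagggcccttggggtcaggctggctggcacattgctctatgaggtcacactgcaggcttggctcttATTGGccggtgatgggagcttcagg
The searched motifs were TATAAA for the TATA box, GGGCGG for the GC box, TGACGTCA for the cyclic AMP response element and CCAAT for the box of that name. Overlapping matches were counted separately. The upstream window held 1 match to TATAAA and 4 to GGGCGG, with 1 overlapping pair, and the internal window 1 match to CCAAT. The letters TGACGTCA occurred in neither window; variants of these letters were not searched. Among the 250 bases before the start in 32851 RefSeq promoter entries, 12.4% held the TATA box letters, 32.7% those of the GC box, 1.55% those of the cyclic AMP response element and 33.9% the CCAAT box. The matches describe these windows only. Promoter windows were matched for 8 of the 9 genes.

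Enpep (ENSMUSG00000028024.14, chr3:129269175-129332720, minus strand) encodes glutamyl aminopeptidase, also called aminopeptidase A, which removes the first residue of angiotensin II to give angiotensin III. It measured 11.47 TPM in replicate 1 and 5.34 TPM in replicate 2, from 1242 and 623 counts. Replicate 1 was higher, with a mean over both of 8.41 ± 4.33 TPM (SD, n = 2). Ace stood below Enpep by a log2 ratio of -0.69 in replicate 1 and was level with it in replicate 2, at -0.03. The mean of -0.36 ± 0.47 (SD, n = 2) does not separate the genes of the peptidases that make and degrade angiotensin II.

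The type 1 angiotensin receptor is encoded by a single gene in human and by a duplicated pair in mouse. Agtr1a (ENSMUSG00000049115.15, chr13:30336441-30382867, plus strand) measured 54.02 TPM in replicate 1 and 56.67 TPM in replicate 2, from 3196 and 3341 counts. Agtr1b (ENSMUSG00000054988.9, chr3:20314473-20367177, minus strand) measured 3.66 TPM in replicate 1 and 3.36 TPM in replicate 2, from 231 and 214 counts. Both genes were reproducible, with means of 55.3 ± 1.87 and 3.51 ± 0.212 TPM (SD, n = 2), and Agtr1a was the major form in both glands. The log2 ratio of Agtr1a over Agtr1b was 3.88 in replicate 1 and 4.07 in replicate 2, a mean of 3.98 ± 0.14 (SD, n = 2). Agtr1a was above 94.3% and 94.8% of nuclear protein-coding genes in replicates 1 and 2, and Agtr1b above 49.7% and 49.4%. The coding sequences are alike enough to ask whether reads can be told apart. Over 1077 aligned coding bases without the stop codon, 978 were identical (90.8%), as were 337 of 359 residues (93.9%), and the longest identical run was 66 bases. Of the 2150 stretches of 50 bases in Agtr1a-201, 33 also occurred in Agtr1b, and the same 33 are among 2098 in Agtr1b-201, so few positions could exchange reads between them. The most divergent part is shown because it separates the paralogs. It covers coding bases 973 to 1062, at chr13:30381926-30382015 on the plus strand for Agtr1a and chr3:20315379-20315468 on the minus strand for Agtr1b, from GENCODE M21, and capitals mark the 20 of 90 bases that differ.
Agtr1a coding window: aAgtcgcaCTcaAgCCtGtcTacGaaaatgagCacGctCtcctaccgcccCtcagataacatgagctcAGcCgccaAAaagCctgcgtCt
Agtr1b coding window: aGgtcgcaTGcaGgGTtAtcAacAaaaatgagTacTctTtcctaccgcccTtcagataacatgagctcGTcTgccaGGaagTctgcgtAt

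Agtr2 (ENSMUSG00000068122.10, chrX:21484544-21489164, plus strand) encodes the type 2 receptor, which opposes many actions of the type 1 receptor and is known mainly from fetal and newborn tissue and from the adrenal medulla. It measured 50.54 TPM in replicate 1 and 66.08 TPM in replicate 2, from 2584 and 3347 counts. Replicate 2 was higher, and the mean was 58.3 ± 10.99 TPM (SD, n = 2). On this scale the ranges of Agtr2 and Agtr1a overlapped. The log2 ratio of Agtr1a over Agtr2 was 0.10 in replicate 1 and -0.22 in replicate 2, a mean of -0.06 ± 0.22 (SD, n = 2). The order depended on the length by which the counts were divided. In the second quantification Agtr1a reached 149 and 146 TPM and Agtr2 41.3 and 50.8 TPM in replicates 1 and 2, so that Agtr1a exceeded Agtr2 by a mean of 1.68 ± 0.23 on the log2 scale (SD, n = 2). With both gene counts divided by the effective length of the full-length transcript, a scale chosen after these values were seen, Agtr1a had 49.4 and 49.97 TPM, Agtr2 26.4 and 33.0 TPM, and the mean log2 ratio was 0.75 ± 0.22 (SD, n = 2). Agtr1a was thus not separated from Agtr2 or was above it, according to the scale. The Agtr2 counts hardly moved, at 2584 and 2584 for Agtr2 in replicate 1 and 3347 and 3308 in replicate 2 in the first and second quantifications. Agtr1a exceeded Agtr1b on all 3 scales.

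**Figure D2:**
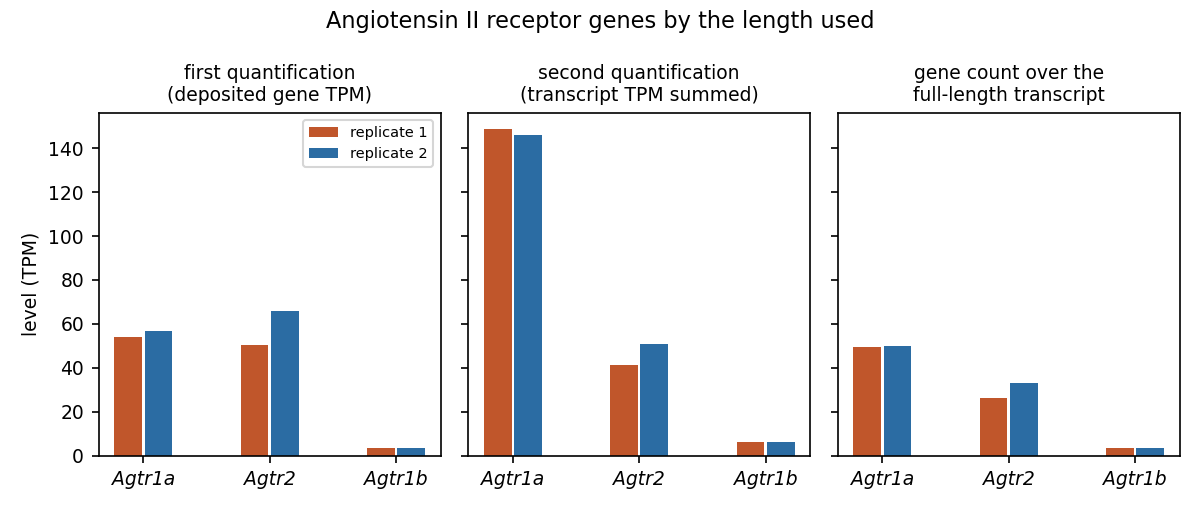
Level in TPM of Agtr1a, Agtr2 and Agtr1b in replicate 1 (left bar) and replicate 2 (right bar), as deposited, in the second quantification, and with the gene count divided by the length of the full-length transcript. Agtr1a and Agtr2 are about level on the left, where Agtr2 averages 58.3 TPM, and Agtr1a is higher in the other panels; Agtr1b is lowest in all.

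Mas1 (ENSMUSG00000068037.11, chr17:12841079-12868143, minus strand) encodes the Mas receptor, which binds a shortened angiotensin peptide. It had 0 counts in replicate 1 and 2 counts in replicate 2 over 10 annotated transcripts. The deposited levels were 0 and 0.06 TPM. By the length of the full-length transcript, the level of 3 counts is 0.0423 TPM in replicate 1 and 0.0409 TPM in replicate 2. On that same scale the 2 counts of replicate 2 are 0.0273 TPM, whereas the deposited level assigns them to shorter transcripts. At this depth Mas1 RNA was not detectable above that floor, and no fold is given for it. The gene lies on the strand opposite the noncoding gene Airn, which had 229 counts in replicate 1 and 248 in replicate 2. The libraries keep strand, per the labels.

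The transcript tables show which RNAs lie behind the receptor levels. In the first quantification, the coding Agtr2 transcript of 3283 bases held 93.4% and 92.7% of the Agtr2 counts in replicates 1 and 2 but only 48.7% and 46.3% of its TPM. The rest of the TPM was a noncoding transcript of 314 bases, with 172 counts in replicate 1 and 243 in replicate 2. Its short length turned those counts into 25.93 and 35.46 TPM. In the second quantification this short transcript had 0 counts in both animals. Of its 265 stretches of 50 bases, 43 occurred in no other transcript, so most of its sequence is shared with the coding one. For Agtr1a the tables differed in the other direction. The full-length Agtr1a-201 of 2199 bases held 89.7% and 85.8% of the TPM in replicates 1 and 2 in the first quantification, against 52.8% and 53.8% in the second. There the 445-base fragment Agtr1a-206 took 173 and 180 counts, worth 59.9 and 60.3 TPM, whereas the first quantification gave it 1.62 and 3.37 counts. Over all tested genes the second quantification was higher by a median of 1.82 times in replicate 1 and 1.80 times in replicate 2. The range from percentile 5 to percentile 95 of these genes was 1.32 to 2.68 in replicate 1 and 1.30 to 2.67 in replicate 2. Agtr1a stood at 2.75 and 2.57 times, above that range in replicate 1 and inside it in replicate 2, and Agtr2 stood at 0.817 and 0.769 times, below it in both.

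In the first quantification, most other members were carried by 1 coding transcript. Agt has only 1 annotated transcript, so its share of 100% was fixed in advance. For Ren1 a single transcript held 100% of the TPM in both animals, and for Atp6ap2 the full-length transcript held a mean of 97.7%. The longest Ace transcript held 82.1% of the TPM in replicate 1 and 71.2% in replicate 2, and most of the remainder was a coding transcript of 3649 bases with 138 and 146 counts. Enpep-201 held 73.3% and 77.7%. The larger part of the remainder was Enpep-203, a transcript with a retained intron, at 179.75 counts in replicate 1 and 56.9 in replicate 2. Agtr1b-201 held 100% and 91.6%, with 0 and 13.8 counts on Agtr1b-202, which encodes the same 359 codons. In the second quantification the mean share was lower for the longest Ace transcript (61.6%), Enpep-201 (63.1%) and Agtr1b-201 (77.6%). It was 100% for Ren1 and 98.0% for Atp6ap2.

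**Figure D3:**
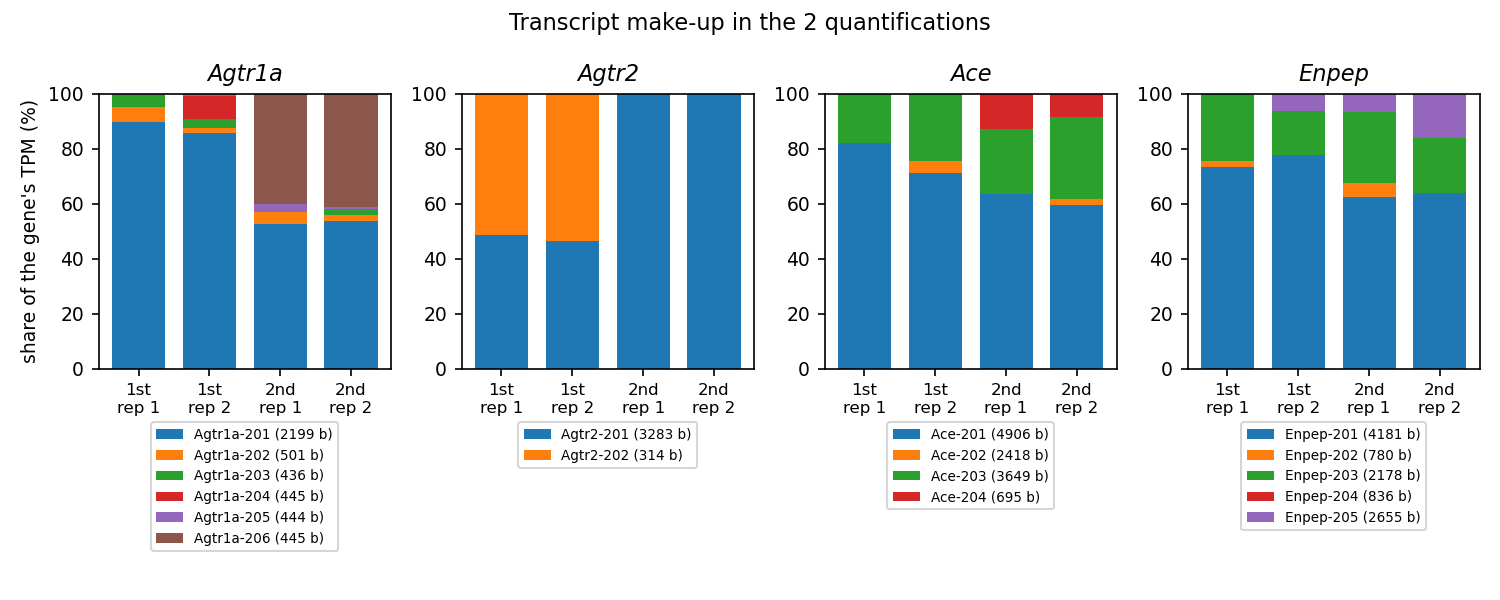
Share in percent of each gene's TPM held by its annotated transcripts (lengths in bases), for Agtr1a, Agtr2, Ace and Enpep, with replicates 1 and 2 of the first quantification left of those of the second. Short transcripts take large shares for Agtr2 in the first and for Agtr1a in the second quantification, and the full-length form leads for Ace and Enpep in all 4 columns.

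The 2 animals were then compared gene by gene, as the log2 ratio of replicate 1 over replicate 2 of scaled counts with its 95% counting interval. The interval covers counting error in these libraries only, and no test between conditions is possible with them. In bulk tissue, fewer cells of a type and less RNA per cell cannot be told apart. Of the 8 members with a mean count of at least 100, 3 differed at least 2-fold (37.5%), against 3.21% of the 13734 genes at that count. Ren1 and Enpep were higher in replicate 1, a direction taken by 1.72% of genes, and Agt was higher in replicate 2, as were 1.49%. The interval left out 0 for 5 of 8 members, against 40.8% of all genes. The median log2 ratio of the members was 0.07 and that of all genes -0.01, but the median size without sign was 0.41 for the members and 0.11 for all genes. The members thus lay on both sides of 0, 5 of 8 higher in replicate 1 and 3 higher in replicate 2, and were spread more widely than the typical gene.

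The receptors and the (pro)renin receptor differed least. The log2 ratio was -0.05 for Agtr1a (interval -0.12 to 0.02), 0.12 for Agtr1b (-0.15 to 0.40) and 0.02 for Atp6ap2 (-0.09 to 0.13), and all 3 intervals held 0. Agtr2 was lower in replicate 1, with a log2 ratio of -0.36 (-0.44 to -0.29). Chromaffin markers, genes of the medulla where Agtr2 is known, had a median of -0.24, and all 7 lay between -0.37 and -0.09. This lean was not particular to them. Capsule and fibroblast markers had a median of -0.21 and ran from -0.41 to 0.97. Macrophage markers had a median of -0.45 and ran from -0.69 to -0.20. The part of any of these cells in the Agtr2 difference was not tested.

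The genes of the soluble limb and of the peptidases differed most. Ren1 was 8.28-fold higher in replicate 1, a log2 ratio of 3.05 (2.55 to 3.63). Kidney markers moved the same way. All 13 kidney genes, none of them at 0 in either animal, had a higher TPM in replicate 1, and the 11 whose mean count reached 100 had log2 ratios from 2.83 to 3.60 with a median of 3.28. The Ren1 ratio lay inside that range. Enpep was 2.01-fold higher in replicate 1, a log2 ratio of 1.01 (0.87 to 1.15) that just reached the 2-fold line and fell short of it in the second quantification, at 0.998, and with the scaling computed over genes without a filter on low counts, at 0.9986. Ace, the next below it, had 0.46 (0.33 to 0.60). Both are also known from kidney, Enpep on the proximal tubule and the podocyte, and both lay below the range of the kidney markers. Smooth muscle and pericyte markers, of the cell types most akin to renin cells, had a median of -0.02, and endothelial markers, the cells best known for Ace, one of -0.06. Slc34a1, the phosphate transporter of the proximal tubule, was the highest kidney marker with 47.0 TPM in replicate 1 and 4.97 TPM in replicate 2. The part of kidney RNA in the Ren1, Enpep and Ace differences was not tested.

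Agt was 2.61-fold higher in replicate 2, a log2 ratio of -1.38 (-1.66 to -1.12). Liver is its main source. All 8 liver markers were higher in replicate 2, none was at 0, and their log2 ratios ran from -2.34 to -1.19 with a median of -2.16. The Agt ratio lay inside that range only through Ttr, at -1.19. All other liver markers lay below the Agt interval, the next being Serpina1b at -1.98. The albumin gene Alb measured 60.3 TPM in replicate 1 and 269 TPM in replicate 2. Fat is another tissue that makes Agt. Of its 6 markers, the 5 with a mean count of 100 or more had a median of -0.28 and ran from -0.44 to 0.13. The other fat marker, Lep, had 18 and 67 counts and a log2 ratio of -1.86 (-2.72 to -1.12). The part of liver or fat RNA in the Agt difference was not tested. Exocrine pancreas genes were the most uneven of the marker lists. Ctrb1, a digestive protease gene, had 2127 TPM in replicate 1 and 0.24 TPM in replicate 2. In replicate 2, 1 of the 5, Cela2a, was at 0.

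**Figure D4:**
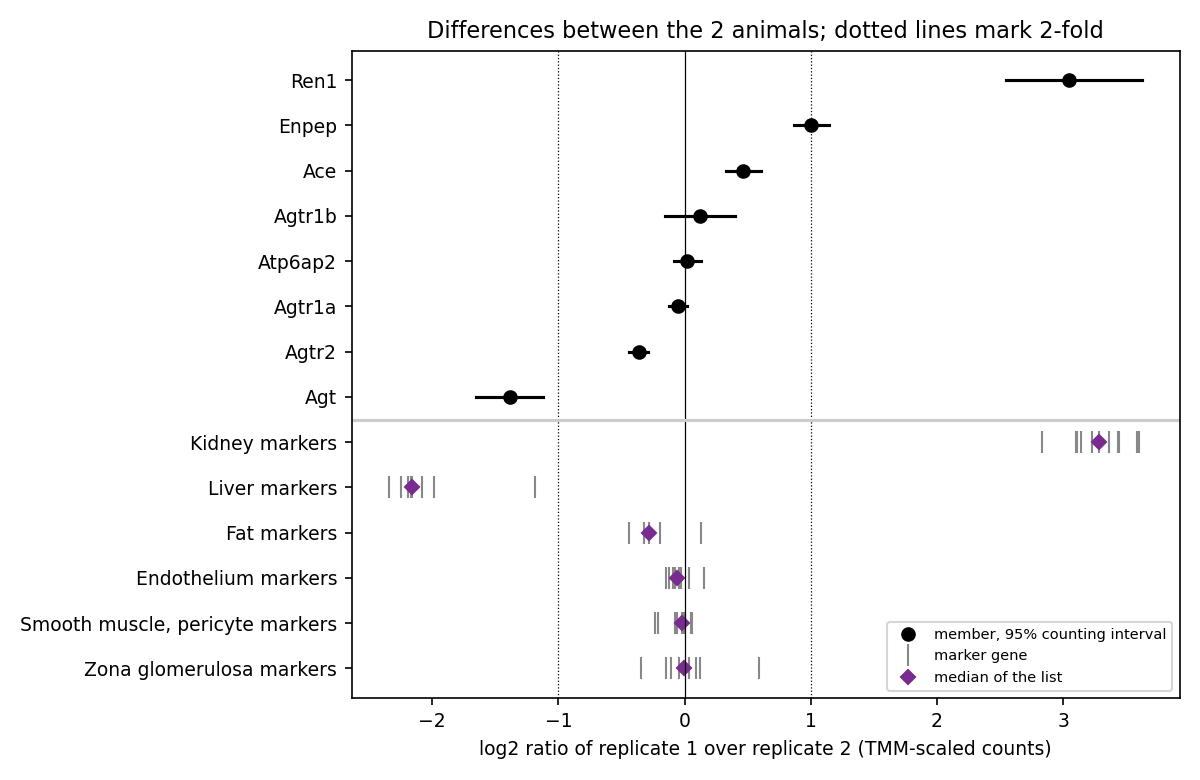
Log2 ratio of replicate 1 over replicate 2 for the 8 members with a mean count of at least 100 (points with the 95% counting interval) and for genes of 6 marker lists (ticks, with a diamond at the median); dotted lines mark 2-fold. Ren1 at 3.05 falls among the kidney markers. Agt at -1.38 lies between the liver marker Ttr and the other liver markers, which are lower. The receptors, endothelium, smooth muscle and zona glomerulosa lie near 0.

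Around the 9 members, 68 genes of the wider system were counted in 6 lists by role, and 58 of them stood at 1 TPM or more in both animals. Of the 60 whose mean count reached 100, 4 were at least 2-fold higher in replicate 1 and 1 in replicate 2, together 8.33% against 3.21% of all genes, and their median size without sign was 0.11. Among the other peptidases of angiotensins, 13 of 16 reached 1 TPM. The lysosomal protease gene Ctsd was the highest, with 191 TPM in replicate 1 and 205 TPM in replicate 2. Lnpep, whose product is the binding site of angiotensin IV, had 40.5 and 47.1 TPM, and Dpp3, a cytosolic dipeptidyl peptidase gene, 40.3 and 37.0 TPM. The RNA of each of these genes was more abundant than that of Ace and Enpep in both animals. Klk1, the tissue kallikrein gene, was the one gene past 2-fold among the 13 of that list with a mean count of 100 or more. Below that count, Ctsg had 9 counts in replicate 1 and 20 in replicate 2, a log2 ratio of -1.10 (-2.46 to 0.06). Klk1 had 382 counts in replicate 1 and 3 in replicate 2, a log2 ratio of 6.78 with a wide counting interval of 5.44 to 9.29, and kallikrein is known from kidney and pancreas, whose markers differed the same way; their part in it was not tested.

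Genes downstream of the receptors were mostly alike in the 2 animals. Of the receptor partners, 4 of 6 reached 1 TPM and none differed 2-fold. Mtus1, which encodes a partner of the type 2 receptor, measured 33.0 TPM in replicate 1 and 32.6 TPM in replicate 2, Agtrap, a type 1 receptor-associated protein gene, 27.7 and 31.3 TPM, and the arrestin gene Arrb1 27.5 and 26.9 TPM. Of the 20 Gq and calcium signalling genes, 19 reached 1 TPM. Rgs2, which limits Gq signalling, measured 60.2 TPM in replicate 1 and 76.3 TPM in replicate 2. The calcium release channel gene Itpr1 had 46.2 and 42.0 TPM. Nr4a1, an immediate early transcription factor gene induced by angiotensin II in glomerulosa cells, was the exception. It had 23.0 TPM in replicate 1 and 50.8 TPM in replicate 2, a log2 ratio of -1.23 (-1.32 to -1.14).

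RNA of genes for the output of the system was present in both glands, and the hormone itself was not measured. Of 12 genes of aldosterone output and the glomerulosa, 11 reached 1 TPM, and none of the 11 with a mean count of 100 or more differed 2-fold. Below that count, Kcnj5 had 50 counts in replicate 1 and 18 in replicate 2, a log2 ratio of 1.46 (0.68 to 2.35). In the second quantification its levels lay closer together, at 1.76 and 1.51 TPM, so this difference depends on the quantification. Kcnk3, a potassium channel gene that sets the glomerulosa membrane potential, measured 244 TPM in replicate 1 and 252 TPM in replicate 2. The endocytic adaptor gene Dab2 had 176 and 158 TPM. The aldosterone synthase gene Cyp11b2 had 99.6 and 64.6 TPM, a log2 ratio of 0.59 (0.52 to 0.65). Agtr1a lay below Cyp11b2 in both animals, by log2 ratios of -0.88 and -0.19, with a mean of -0.54 ± 0.49 (SD, n = 2). In the second quantification the ratios were -0.46 and 0.06, so the order turned in replicate 2. Set against Mc2r, the corticotropin receptor gene of the cortex, Agtr1a was lower by the deposited TPM, with log2 ratios of -0.48 and -0.51, but higher in the second quantification, with 0.30 and 0.21. By gene TPM, which receptor RNA was the more abundant is therefore not settled. The full-length Agtr1a-201 alone lay below the Mc2r gene in both quantifications. In the first it had 48.45 and 48.62 TPM in replicates 1 and 2, against 75.4 and 80.5 for Mc2r. In the second it had 78.4 and 78.5 TPM, against 121 and 126 for Mc2r.

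Of the 6 aldosterone target genes, 3 reached 1 TPM in both animals. Sgk1, the kinase gene induced by the mineralocorticoid receptor, was the highest, with 41.4 TPM in replicate 1 and 43.9 TPM in replicate 2. Nr3c2, the receptor gene itself, had 2.62 and 3.32 TPM. The genes that define aldosterone-sensitive epithelium were all higher in replicate 1. Hsd11b2, the glucocorticoid-inactivating enzyme gene, had 5.35 and 1.98 TPM with a log2 ratio of 1.39 (1.07 to 1.72), and the sodium channel subunit genes Scnn1b and Scnn1a had ratios of 2.35 (1.92 to 2.83) and 1.15 (0.75 to 1.57). Kidney markers were higher in the same library, and their part in these differences was not tested. All 8 vacuolar proton pump genes, the partners of Atp6ap2, reached 1 TPM and lay within log2 ratios of -0.06 and 0.14, with Atp6v0c at 124 and 120 TPM, Atp6v1e1 at 95.6 and 92.6 TPM and Atp6v1b2 at 57.2 and 56.5 TPM.

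**Figure D5:**
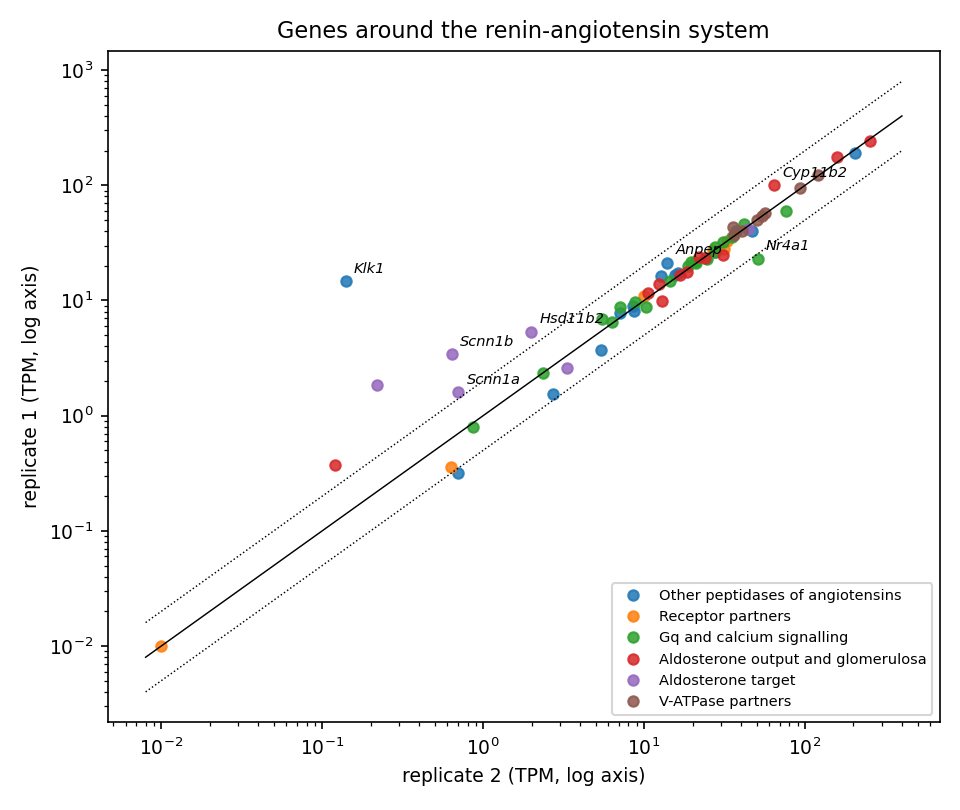
Level in TPM of the 68 genes around the renin-angiotensin system in replicate 1 (vertical log axis) against replicate 2 (horizontal log axis), coloured by role; the solid line marks equal levels and the dotted lines 2-fold, and Ace3, at 0 in both, is not drawn. Most points lie along the line. Klk1, Hsd11b2, the sodium channel genes and Kcnj5 lie above the band, and Nr4a1 and Ctsg lie below it.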

How the data were processed

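Total RNA-seq libraries of 2 adrenal glands were grouped by the labels into 1 group. Per the file headers, the authors' gene table gives expected counts, TPM, posterior mean TPM and FPKM for 81881 sequences, and the deposited FPKM and the authors' percent of each gene held by a transcript were not used for results. The authors' second transcript table gives estimated counts and TPM for 141864 sequences and was summed to genes. The submitters' processing notes name mm10 and M21; the sources used here do not name the quantifiers.

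Members and lists were chosen with earlier results of these data known. All 9 members are named, with the 3 highest genes of each pathway list, every pathway gene past 2-fold, and genes of the fixed pairs, of which 1 is not reported here; marker lists are mostly given by sums. Expected counts were rounded and scaled by TMM (edgeR 4.0.16; factors 1.01 and 0.987, mean count of 10 or more), with a prior of 0.5 counts. Intervals are exact conditional binomial at 95% and, like the floor of 3 counts, cover counting error only: without molecular identifiers, reads are not independent molecules. Calls are 2-fold at a mean count of 100, which is no test. Pairs use log2 of TPM with 0.01 added. Alternatives were DESeq2 1.42.0 size factors, spike-in, total and TPM scaling, other filters, priors and pseudocounts, the second table, posterior means, other TPM denominators and each replicate left out. The steps were tested on simulated data in R 4.3.3 and Python 3.11.15.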

Additional observations from a re-analysis of the deposited data

How the results depend on the processing

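No paired analysis was possible because the libraries form 1 group. The count of members differing 2-fold was 3, with a range of 2 to 4 over 7 alternatives; it was 2 with the second table, where Enpep reached a log2 of 0.998, and 4 with no filter, where the 2 counts of Mas1 enter. The median log2 ratio ran from 0.01 to 0.14 over 5 alternatives. Of 56 recomputed member ratios between the animals, 55 stayed within the counting interval and Agtr1a with spike-in scaling, at 0.02, did not; the largest shift of the median of all genes, with spike-in scaling, was 0.07. The wider system kept between 56 and 62 detected genes, against 58.

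Levels moved more. With the second table, mean TPM was 147 for Agtr1a, 6.20 for Agtr1b, 46.1 for Agtr2, 11.8 for Ace, 30.1 for Atp6ap2 and 15.3 for Enpep. Ren1 and Agt, whose spread is wider, had 6.53 and 8.44. Over nuclear genes only it was 61.7 for Agtr1a, 3.91 for Agtr1b and 22.2 for Atp6ap2, by the smaller denominator. On the full-length scale, added after seeing the data, Agtr1a had 49.7 and Agtr2 29.7. The posterior mean gave Mas1 0.43. The mean log2 of Agtr1a over Agtr1b was 3.64 with 1 TPM added, 4.57 with the second table and 3.84 on the full-length scale, and that over Agtr2 was 1.68 with the second table and 0.75 on the full-length scale. Over Mas1, where no fold is read, it was 8.78 and 5.77 with 0.1 and 1 TPM added and 6.97 by posterior mean. Agtr1a over Mc2r turned to 0.25 with the second table and was -0.47 by posterior mean; the cause was not tested. Leading transcript shares moved in 8 of 32 recomputations, mainly with the second table. Depth limits Mas1 and the low value of Ren1, and with 2 animals no SD is precise.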

Other observations

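The mast cell chymase genes of the wider list, counted there among the other peptidases of angiotensins, were detected in both glands. The activity of their products on angiotensins was not measured. These genes were singled out after their values were seen. Cma1 had 3.71 TPM in replicate 1 and 5.38 TPM in replicate 2, from 113 and 169 counts, and Mcpt4 had 1.54 and 2.71 TPM. Cma1 was thus in the same band as Ace, which had 7.11 and 5.23 TPM, and had its higher value in the other animal. Among the glomerulosa channel genes, Kcnj5, the potassium channel gene mutated in human aldosterone-producing adenomas, was the one below 1 TPM by the deposited gene TPM. It had 50 counts and 0.37 TPM in replicate 1 and 18 counts and 0.12 TPM in replicate 2, beside 244 and 252 TPM for Kcnk3. In the second quantification Kcnj5 had 1.76 and 1.51 TPM, above 1 TPM in both animals.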
